A study of Drosophila melanogaster with 36 samples.

Results

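The 9 genes that pattern the dorsal and lateral parts of the early fly embryo, namely dpp, scw, tsg, tld, sog, brk, zen, rho and ths, were followed across genotype, gradient pool and time in Drosophila melanogaster embryos. The 9 genes were chosen by symbol and matched by FlyBase identifier, and all 9 were present among the 10226 genes of the study, with a value in each of its 36 libraries. The embryos were orb2-delta-zz, a line whose name refers to the zinc-binding ZZ domain of the RNA-binding protein ORB2, or wild type, which was w1118, the stock as it was before injection. Lysates of embryos collected 0-1h, 1-2h or 2-3h after egg laying were run on a 15-45% sucrose gradient with cycloheximide, and RNA from its pools 1 and 3 was read by sequencing. There were 3 gradients for each genotype and window, hence 12 groups of 3 libraries, and the labels do not say which stretch of the gradient a pool covers, whether the flies were homozygous, or whether the replicates came from separate cultures. P-values therefore measure the spread between these gradients, which may be technical.

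These genes are switched on by the embryo itself, around the time at which RNA supplied by the mother is cleared. Dorsal, a maternal transcription factor that enters ventral and lateral nuclei, represses dpp, tld and zen, which leaves them to dorsal cells, and activates sog, brk, rho and ths in lateral cells. On the dorsal side of the embryo the BMP ligands Dpp and Scw signal through shared receptors, Sog and Tsg bind and carry the ligands, Tld cleaves Sog, and the resulting peak of signalling along the dorsal midline sets the fate of the amnioserosa.

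Of the BMP ligands, dpp (FBgn0000490) lies on chromosome 2L at 2428372 to 2459823, plus strand, and scw (FBgn0005590) on 2L at 19699379 to 19700968, minus strand, in the Ensembl annotation (BDGP6). The ligand carrier gene tsg (FBgn0003865; X, 11988062 to 11988948, minus strand) and the metalloprotease gene tld (FBgn0003719; 3R, 24749731 to 24753510, plus strand) act on Sog, encoded by sog (FBgn0003463; X, 15603283 to 15633434, minus strand). The repressor of Dpp target genes is encoded by brk (FBgn0024250; X, 7307939 to 7311132, plus strand), and the homeodomain factor of the amnioserosa by zen (FBgn0004053; 3R, 6752864 to 6754194, minus strand). The intramembrane protease that releases EGF receptor ligands is encoded by rho (FBgn0004635; 3L, 1463811 to 1468944, plus strand), and an FGF ligand of the receptor Heartless by ths (FBgn0033652; 2R, 11756817 to 11814424, plus strand). All are protein-coding genes and no exon of theirs overlaps an exon of another annotated gene. No source used here gives the authors' genome build, so these positions serve as annotation only.

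Library totals lay between 2.16e+07 and 4.73e+07 normalized counts, and the reads behind them were estimated at 23 to 45.9 M per library. Of 8 marker genes of early embryos, 7 were listed at all 3 windows, and the eighth, Sry-alpha, was listed from 1-2h on. None (0) of 12 eggshell genes was listed at any window, and the adult fat body and yolk genes summed to at most 1.10 TPM, a level per unit of transcript length and per library total. Markers of late embryos and differentiated cells, such as neurons and muscle (4 of 13 listed at 0-1h, 10 at 1-2h and 11 at 2-3h), stood apart in single gradients. At 0-1h in pool 3 they summed to 2.07 to 571 TPM in orb2-delta-zz and 5.91 to 26.7 TPM in wild type, the highest being orb2-delta-zz replicate 1. At 1-2h they summed to 78.0 to 310.1 TPM in orb2-delta-zz and 12.0 to 667 TPM in wild type, with replicate 3 and replicate 2 the highest. At 2-3h they summed to 237 to 1047 TPM in orb2-delta-zz and 105 to 1189 TPM in wild type, with replicate 2 the highest in both. Results that rest on these gradients are given with and without them, and their part in other differences was not tested.

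The first comparison set the genotypes against each other within each pool. The 9 genes lay lower in orb2-delta-zz at every window. All 54 differences (9 genes, 2 pools, 3 windows) lay below 0, 33 passed the test as lower and 0 as higher. Differences here and below are log2 differences of normalized counts, orb2-delta-zz minus wild type, ± SE, and a gene was called where limma's Benjamini-Hochberg adjusted p, taken over all genes tested, was under 0.05. In these whole-embryo lysates fewer cells expressing a gene and less RNA per cell cannot be told apart.

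**Figure D1:**
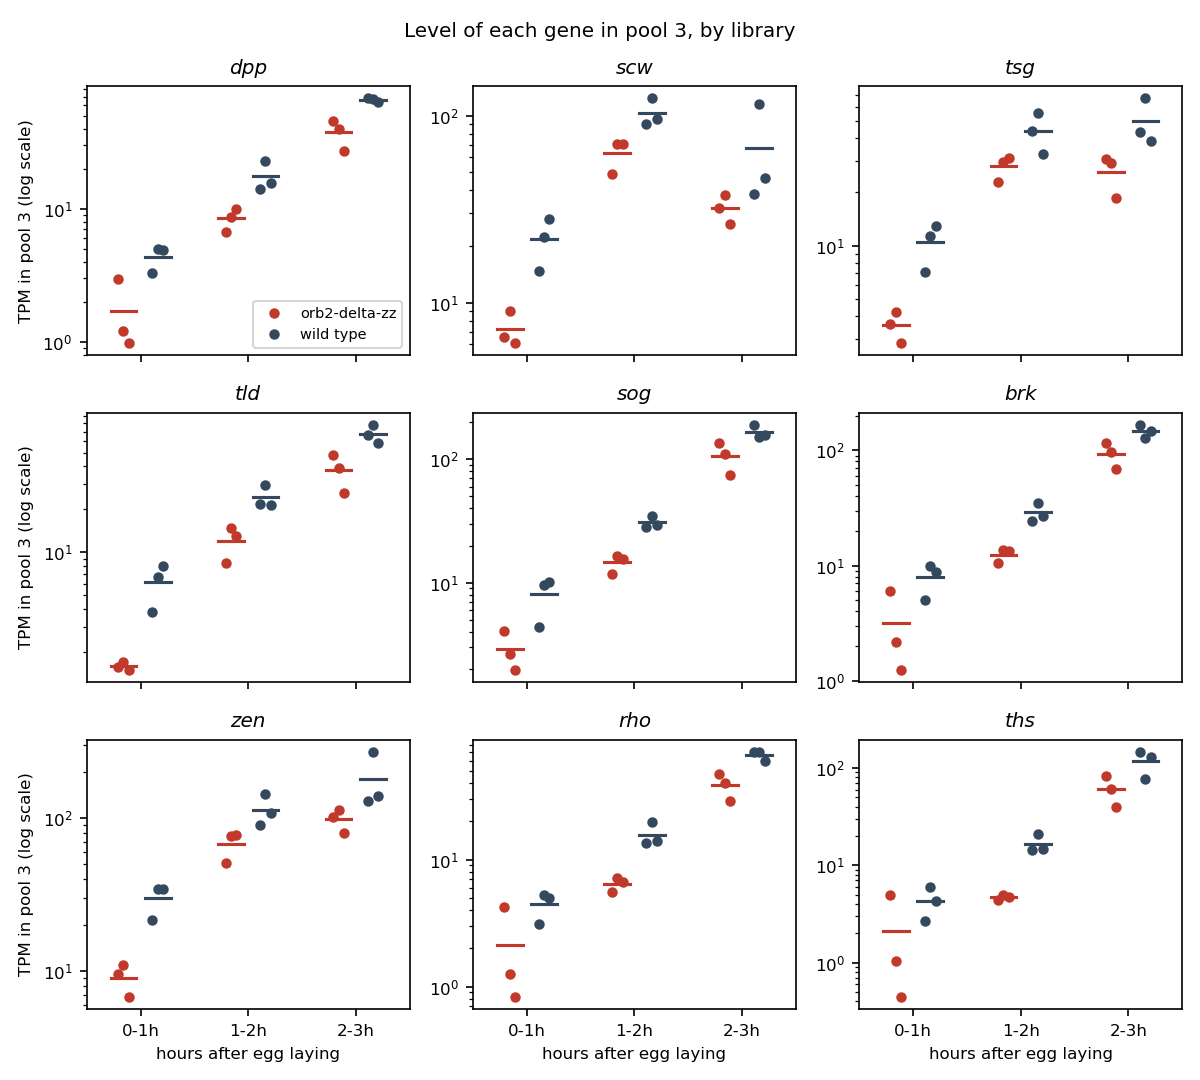
Level of each of the 9 genes in pool 3 in TPM on a log axis, against hours after egg laying; each point is 1 library, each horizontal bar the mean of 3, with orb2-delta-zz in red and left of wild type in dark blue. The 9 genes are higher at 1-2h than at 0-1h in both genotypes, scw alone is then lower at 2-3h in both, and the orb2-delta-zz libraries mostly sit below those of wild type.

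At 0-1h the genes were scarce, with 0.0101 TPM (ths) to 2.15 TPM (zen) in the orb2-delta-zz libraries of pool 1 and 0.121 to 6.83 TPM in those of wild type, and higher values in pool 3. Among the BMP ligands, scw had 6.57, 9.02 and 6.08 TPM in the 3 orb2-delta-zz libraries of pool 3, against 14.8, 22.6 and 28.2 TPM in wild type. The groups did not overlap, and the difference was -1.54 ± 0.32 (adjusted p = 0.0119). The other ligand gene, dpp, had 2.97, 1.20 and 0.978 TPM in orb2-delta-zz and 3.26, 4.94 and 4.86 TPM in wild type, again without overlap, though orb2-delta-zz replicate 1 came close to the lowest wild-type library (-1.47 ± 0.40, adjusted p = 0.045).

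The genes around Sog behaved alike at 0-1h. For tld, pool 3 held 1.55, 1.69 and 1.49 TPM in orb2-delta-zz, against 3.83, 6.66 and 7.93 TPM in wild type (-1.87 ± 0.36, adjusted p = 0.00764), which was the most negative of the 9 differences in either pool. The carrier gene tsg had 3.65, 4.22 and 2.84 TPM in orb2-delta-zz, against 7.13, 11.4 and 12.96 TPM in wild type (-1.49 ± 0.39, adjusted p = 0.039). For sog the values were 4.10, 2.64 and 1.98 TPM in orb2-delta-zz, against 4.39, 9.68 and 10.2 TPM in wild type (-1.43 ± 0.38, adjusted p = 0.0449). In all 3 genes the wild-type library nearest to orb2-delta-zz was replicate 1.

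The homeobox gene zen was the most abundant of the 9 in wild type at 0-1h. It had 9.47, 10.9 and 6.76 TPM in orb2-delta-zz and 21.5, 34.2 and 34.2 TPM in wild type, with a difference of -1.70 ± 0.30 (adjusted p = 0.00482). The lateral genes brk, rho and ths overlapped between the genotypes in pool 3 and did not pass the test. In each of them orb2-delta-zz replicate 1 stood high: ths had 4.91, 1.03 and 0.444 TPM in orb2-delta-zz, against 2.70, 6.03 and 4.26 TPM in wild type (-1.62 ± 0.78, adjusted p = 0.359). For rho the values were 4.27, 1.26 and 0.831 TPM in orb2-delta-zz, against 3.12, 5.29 and 4.97 TPM in wild type (-1.37 ± 0.50, adjusted p = 0.168). For brk they were 6.03, 2.19 and 1.24 TPM in orb2-delta-zz, against 5.05, 9.87 and 8.80 TPM in wild type (-1.55 ± 0.64, adjusted p = 0.232). Replicate 1 is the gradient in which the late-embryo markers stood apart at 0-1h.

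In all, 6 of the 9 genes were called lower in orb2-delta-zz in pool 1 at 0-1h, where 4.42% of all 7533 genes tested were called lower and 5.62% higher, and 6 in pool 3, where 3.13% were called lower and 4.45% higher. The same 6 genes passed in both pools: dpp, scw, tsg, tld, sog and zen. The 9 genes had a median difference of -1.65 in pool 1 and -1.54 in pool 3, beside medians over all genes of 0.02 and 0.03. Normalized counts of the genotypes did not overlap for 8 genes in pool 1 and 6 in pool 3, each time with orb2-delta-zz lower, where 10.6% and 9.39% of all genes lay so. With the replicate number as a block, dpp was not called in pool 1 (adjusted p = 0.0584), which left 5 (4.7% of all genes). Without orb2-delta-zz replicate 1, 8 of the 9 were called in each pool. Leaving out replicate 2 of orb2-delta-zz instead gave 2 calls in pool 1 and 3 in pool 3, and its replicate 3 gave 2 and 2. Leaving out replicate 2 of wild type gave 2 and 0, and its replicate 3 gave 4 and 2, with all 9 differences still below 0. Shares of all genes called without these gradients are not given here, so the changed counts are not read as particular to the 9.

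**Figure D2:**
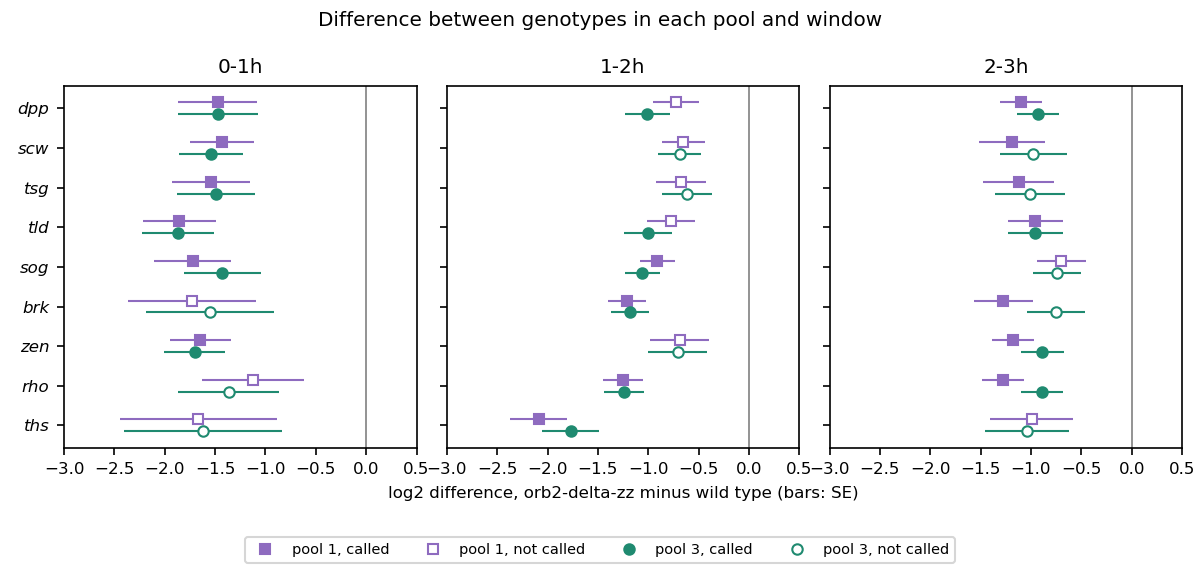
Log2 difference in normalized counts, orb2-delta-zz minus wild type, for each gene in pool 1 (squares) and pool 3 (circles) at 0-1h, 1-2h and 2-3h; bars are standard errors of the fit and filled symbols passed the test. All 54 points lie left of 0, and at 1-2h ths lies farthest from it in both pools.

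At 1-2h the lateral genes carried the largest differences. The FGF ligand gene ths had 4.37, 4.98 and 4.74 TPM in the orb2-delta-zz libraries of pool 3, against 14.3, 20.9 and 14.7 TPM in wild type. The orb2-delta-zz libraries lay close together and far below those of wild type, with differences of -1.77 ± 0.28 in pool 3 (adjusted p = 0.00122) and -2.09 ± 0.28 in pool 1 (adjusted p = 0.000355). In pool 1 it was scarce, at 0.172, 0.113 and 0.0569 TPM in orb2-delta-zz and 0.507, 0.531 and 0.417 TPM in wild type. The protease gene rho had 5.57, 7.10 and 6.64 TPM in orb2-delta-zz, against 13.6, 19.6 and 14.0 TPM in wild type, in pool 3 (-1.24 ± 0.20, adjusted p = 0.00113).

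The genes that limit Dpp signalling, brk and sog, differed less than ths at 1-2h, and in pool 3 sog lay near dpp and tld. The repressor gene brk had 10.5, 13.5 and 13.3 TPM in orb2-delta-zz, against 24.5, 35.1 and 27.0 TPM in wild type, in pool 3 (-1.18 ± 0.19, adjusted p = 0.0013). The inhibitor gene sog had 11.8, 16.6 and 15.4 TPM in orb2-delta-zz, against 28.4, 34.6 and 29.3 TPM in wild type (-1.06 ± 0.17, adjusted p = 0.00134). Both were called in pool 1 as well, as was rho (-1.21 for brk, -0.91 for sog and -1.25 for rho). In none of these 3 genes did a library of one genotype reach the range of the other.

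The remaining genes differed less clearly at 1-2h, and no test set them apart from the lateral genes. In pool 3, dpp had 6.67, 8.75 and 9.97 TPM in orb2-delta-zz, against 14.2, 22.9 and 15.6 TPM in wild type (-1.01 ± 0.22, adjusted p = 0.0114). For tld the values were 8.39, 14.8 and 12.9 TPM in orb2-delta-zz, against 21.9, 29.6 and 21.3 TPM in wild type (-1.01 ± 0.24, adjusted p = 0.0161). Neither passed in pool 1 (-0.72 and -0.77). The genes scw, tsg and zen passed in neither pool. In pool 3 the difference was -0.69 ± 0.21 for scw (adjusted p = 0.066), -0.61 ± 0.25 for tsg (adjusted p = 0.171) and -0.71 ± 0.29 for zen (adjusted p = 0.184). Their values in pool 3 did not overlap between genotypes either, as in scw with 48.5, 70.5 and 70.8 TPM in orb2-delta-zz, against 90.5, 124 and 95.8 TPM in wild type.

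Thus 4 of the 9 genes were called lower in pool 1 at 1-2h (4.8% of all 8294 genes tested, with 6.63% called higher) and 6 in pool 3 (5.04%, with 3.53% higher). The medians of the 9 were -0.77 and -1.01, and those of all genes 0.11 and 0.07. The normalized counts did not overlap for 7 genes in pool 1 and for all 9 in pool 3, beside 10% and 11.8% of all genes lying as low. With the gradients of the highest late-embryo sums left out (orb2-delta-zz replicate 3, wild-type replicate 2), 4 genes were called in pool 1 and 5 in pool 3. The gene lost in pool 3 was tld, whose call also went when only replicate 1 or 3 of orb2-delta-zz, or only replicate 1 of wild type, was left out.

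At 2-3h the differences were of more even size, between -0.70 and -1.28. In pool 1, 7 of the 9 genes were called lower (9.48% of all 9554 genes tested, with 14.4% called higher), all except sog (-0.70 ± 0.24, adjusted p = 0.0519) and ths (-0.99 ± 0.42, adjusted p = 0.0988). In pool 3, 4 were called lower (4.97%, with 9.71% higher), namely dpp, tld, zen and rho. The medians were -1.12 and -0.93, beside -0.03 and 0.01 over all genes, and the normalized counts did not overlap for 8 genes in pool 1 and 6 in pool 3, where 16.5% and 13.6% of all genes lay so.

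The clearest of these was rho in pool 1, with 19.0, 15.0 and 16.4 TPM in orb2-delta-zz and 37.9, 38.0 and 46.9 TPM in wild type (-1.28 ± 0.21, adjusted p = 0.00201). In pool 3, dpp had 45.9, 39.6 and 27.3 TPM in orb2-delta-zz, against 67.9, 67.1 and 63.7 TPM in wild type (-0.93 ± 0.21, adjusted p = 0.0138). In neither gene did the genotypes overlap, and for dpp the wild-type libraries lay closer together than those of orb2-delta-zz. For zen in pool 3 the values were 101, 113 and 79.5 TPM in orb2-delta-zz, against 129, 270.3 and 140.0 TPM in wild type (-0.89 ± 0.21, adjusted p = 0.0172), with wild-type replicate 2 far above the rest. The same library held 116 TPM of scw, where the other wild-type libraries had 38.2 and 46.5 TPM and orb2-delta-zz had 32.3, 37.7 and 26.2 TPM. It also held the least ths of wild type, at 76.5 TPM against 146 and 130.2 TPM, a value inside the orb2-delta-zz range of 82.0, 61.4 and 39.5 TPM.

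Calls at 2-3h depended on the fit and on single gradients. With the replicate number as a block all 9 genes were called in pool 1 (19.8% of all genes called lower) and all 9 in pool 3 (16.4%), so that sog (adjusted p = 0.00797) and ths (adjusted p = 0.013) passed in pool 1 as well. Same-numbered libraries of the genotypes deviated together in every pair in pool 1 and in 2 of 3 pairs in pool 3. With both gradients of high late-embryo sums left out, replicate 2 of each genotype, 5 genes were called in pool 1 and 3 in pool 3. Without wild-type replicate 2 alone, 8 were called in each pool. Leaving out replicate 2 of orb2-delta-zz gave 3 in pool 1 and 0 in pool 3, and leaving out its replicate 3 gave 4 and 0. Leaving out replicate 1 of wild type gave 4 and 1, and its replicate 3 gave 3 and 1. Shares of all genes called without single gradients are not given here, so these counts are not read as particular to the 9. None of the 54 differences turned above 0 in any of these fits.

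Other genes that the embryo transcribes early were lower as well. The shares of all genes called, given above for each window and pool, are the background of every list count from here on. Among 25 further early zygotic genes (24 tested at 0-1h), lower calls at 0-1h numbered 15 for pool 1 and 17 for pool 3, at 1-2h 10 and 17, and at 2-3h 22 and 11, with 0 called higher. They included halo, which directs lipid droplet transport (-2.29 ± 0.36 in pool 3 at 0-1h), Z600, an inhibitor of mitosis (-2.36 ± 0.38), and bnk, which acts in cellularization (-2.05 ± 0.34). Their summed level in pool 3 at 2-3h lay between 6092 and 8910 TPM in orb2-delta-zz and between 11030 and 14980 TPM in wild type. The 9 patterning genes thus moved with a broader group, and no test set them apart from it.

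Genes of the dorsal ectoderm and amnioserosa, which lie downstream of Dpp or zen or share their territory, were called lower most often at 1-2h. Of 15 tested, the lower calls at 1-2h numbered 8 for pool 1 and 10 for pool 3, those at 2-3h 6 and 3, and those at 0-1h 2 and 1 (of 14), with 0 called higher. In pool 3 at 1-2h the GATA factor gene pnr had the largest difference of the list (-2.14 ± 0.24, adjusted p = 7.09e-05), followed by the T-box genes Doc3 (-1.67) and Doc2 (-1.53) and the LIM homeobox gene tup (-1.51). Of 9 genes of the neurogenic ectoderm, where sog, brk, rho and ths are active, lower calls at 1-2h numbered 8 for pool 1 and 9 for pool 3, at 2-3h 6 and 3, and at 0-1h 2 and 1. Among them were the homeobox gene Dr (-1.82), the midline regulator sim (-1.81) and the Sox factor gene SoxN (-1.71), all in pool 3 at 1-2h.

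For other components of the signalling pathways, the BMP and EGF receptor lists held calls in both directions and the FGF list lower calls only. Of 22 other BMP pathway genes tested at 1-2h, pool 1 had 2 lower and 2 higher calls, while pool 3 had 2 lower calls only. The third BMP ligand gene gbb was lower (-1.33 ± 0.28 in pool 1, -1.48 ± 0.28 in pool 3), and tok, which encodes a protease related to Tld, was lower in pool 3 (-1.13). Dad, the inhibitory Smad gene that Dpp signalling itself induces, was higher in pool 1 (1.11 ± 0.26, adjusted p = 0.0143). It had been higher at 0-1h too, at 1.34 ± 0.16 in pool 1 and 1.33 ± 0.16 in pool 3, where 1 other BMP gene of 20 was called, the Tsg relative srw, which was lower (-1.93 and -1.57). At 2-3h the 22 genes gave 1 higher call against 4 lower ones in pool 1, while pool 3 gave 2 against 1, with srw again lower (-1.05 and -1.10).

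In the EGF receptor pathway, 2 of 17 genes were called lower in pool 1 at 1-2h and 3 in pool 3, with 0 higher. They were the receptor gene Egfr (-1.04 and -1.23) and the ligand genes vn (-0.71 and -1.08) and, in pool 3, spi (-0.78). At 2-3h the calls in pool 1 were 3 lower and 1 higher (9.48% and 14.4% of all genes). Pool 3 had 1 of each kind (4.97% and 9.71%), and nothing about the pathway is read from counts this near the background. At 0-1h there were 2 higher calls in pool 1 and none (0) in pool 3. In the FGF pathway, 3 of 9 genes were called lower in both pools at 1-2h: the receptor genes htl (-1.36 and -1.30) and btl (-2.14 and -1.83) and stumps (-1.21 and -1.53), the adaptor of both receptors. Thus the receptor gene htl and its ligand gene ths were lower at the same window. At 2-3h, 2 lower calls fell in pool 1 and 1 in pool 3, and at 0-1h none (0) of 8 was called.

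RNA that the mother supplies went the other way at 2-3h. Of 17 maternal transcripts that are cleared in these hours, 10 were called higher in pool 1 and 12 in pool 3 at 2-3h, 2 and 1 at 1-2h, and 0 and 0 at 0-1h, and 0 were called lower. Their sum in pool 3 at 2-3h was 4412 to 6252 TPM in orb2-delta-zz, against 2158 to 2992 TPM in wild type, without overlap. Of 14 maternal and early inputs to the patterning genes, the calls at 2-3h were 3 higher against 4 lower in pool 1, while pool 3 had 4 higher against 0 lower. The higher ones included dl, which encodes Dorsal (2.17 ± 0.49 in pool 1, 2.11 ± 0.49 in pool 3), spz, the ligand of Toll (1.67 and 1.93), and the Toll pathway adaptor gene tub (1.12 and 0.98). Among the lower ones in pool 1 was grh (-1.31 ± 0.25, adjusted p = 0.00443). At the earlier windows 1 of the 14 was called in pool 1 at 0-1h (cact, higher) and 1 in each pool at 1-2h (grh, lower). The part of maternal RNA levels in the lower values of the patterning genes was not tested.

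The second comparison followed the genes between windows, on log2(TPM + 1), since normalized counts were scaled per window. From 0-1h to 1-2h all 9 genes rose in pool 3 in both genotypes, by a median of 2.02 in orb2-delta-zz (6.47% of all 7157 genes tested were called higher) and 1.85 in wild type (9.19%). In pool 1, 8 were called higher in orb2-delta-zz (7.66%) and 8 in wild type (8.08%). The exception in both was ths (0.08 ± 0.32 and 0.39 ± 0.32), which lay below 1 TPM, where adding 1 compresses most of a change. In wild type ths had 0.121 to 0.152 TPM at 0-1h and 0.417 to 0.531 TPM at 1-2h in pool 1, without overlap. In orb2-delta-zz the libraries of these windows overlapped, with means of 0.0542 and 0.114 TPM. The missing call of ths is therefore not read as a lack of a rise. The median over all genes was 0.07 in orb2-delta-zz and 0.03 in wild type in pool 3, and -0.26 and -0.43 in pool 1. On this scale the steepest gains of orb2-delta-zz in pool 3 were those of scw (2.96 ± 0.22), zen (2.78 ± 0.25) and tsg (2.66 ± 0.22). In wild type these genes gained 2.23, 1.89 and 1.98. Adding 1 compresses gains from low values, such as that of tld in orb2-delta-zz, from a mean of 1.58 to 12.0 TPM. For zen the means were 9.04 and 68.2 TPM, so the order of gains is read on this scale only.

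From 1-2h to 2-3h the genes parted. In pool 3, 6 rose in orb2-delta-zz (19.9% of all 7707 genes were called higher) and 6 in wild type (23%): dpp, tld, sog, brk, rho and ths. The FGF ligand gene ths gained most, 3.38 ± 0.26 in orb2-delta-zz and 2.72 ± 0.26 in wild type, followed by brk (2.79 and 2.31) and sog (2.76 and 2.38). The BMP ligand gene scw fell by 0.95 ± 0.32 in orb2-delta-zz (33.6% of all genes were called lower) and by 0.78 ± 0.32 in wild type (41.2%). The changes of zen (0.53 and 0.60) and tsg (-0.11 and 0.16) did not pass the test in pool 3. In pool 1 the same 6 rose in orb2-delta-zz (16.8%) and zen rose as well in wild type (0.99 ± 0.28; 7 genes, 20.2%), while scw fell by 1.23 in orb2-delta-zz (53.1%) and by 0.91 in wild type (55.9%). The fall of scw in wild-type pool 1 was not seen after quantile normalization, which gave 0.12, and the same scaling turned tsg from -0.13 to a called 0.85. The median over all genes in pool 1 was -0.55 in orb2-delta-zz and -0.63 in wild type.

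The early BMP ligand gene scw and the FGF ligand gene ths, which both rose in pool 3 from 0-1h to 1-2h, thus moved in opposite directions from 1-2h to 2-3h. The ratio of their TPM within a library sets them against each other without any scaling between libraries. The pair was taken from these same data and not planned, and no share over other pairs of genes is given. In pool 3 at 0-1h the ratio of ths to scw was 0.748, 0.114 and 0.0730 in orb2-delta-zz and 0.183, 0.267 and 0.151 in wild type, with orb2-delta-zz replicate 1 above all other libraries of that window. At 1-2h it was 0.0901, 0.0707 and 0.0669 in orb2-delta-zz, against 0.158, 0.169 and 0.153 in wild type, so the genotypes lay apart. At 2-3h it was 2.54, 1.63 and 1.51 in orb2-delta-zz, against 3.82, 0.661 and 2.80 in wild type, so that wild-type replicate 2 was the lowest of the window and the groups overlapped. In pool 3 at 1-2h rho to tsg also lay apart (0.245, 0.2395 and 0.213 in orb2-delta-zz, 0.308, 0.353 and 0.426 in wild type). There sog to dpp overlapped (1.767, 1.896 and 1.549 in orb2-delta-zz, 2.003, 1.516 and 1.885 in wild type).

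**Figure D3:**
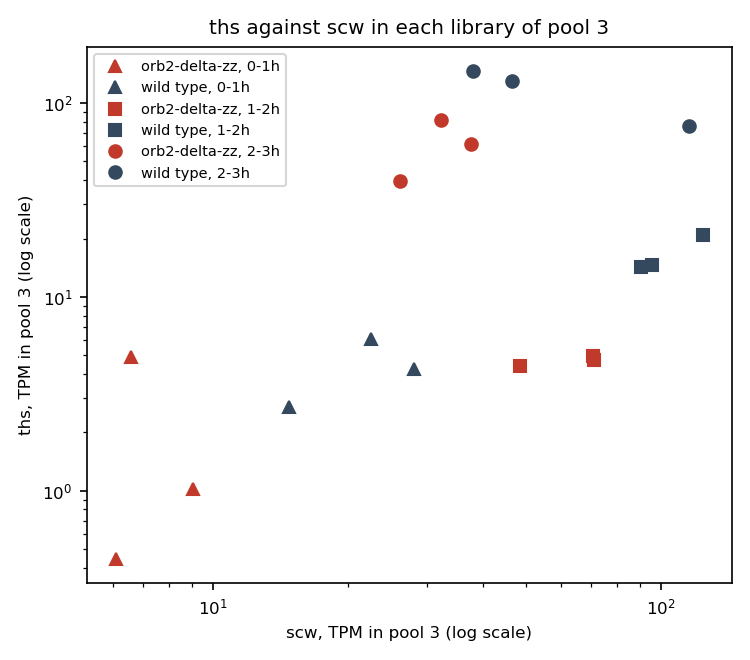
TPM of ths against TPM of scw in each of the 18 libraries of pool 3, both on log axes; red is orb2-delta-zz, dark blue wild type, and triangles, squares and circles stand for 0-1h, 1-2h and 2-3h. The 1-2h libraries of orb2-delta-zz lie at 4.37 to 4.98 TPM of ths, below all 3 of wild type, and 1 wild-type library of 2-3h lies apart at 116 TPM of scw.

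The order of levels shifted with time, TPM being per unit of transcript length. At 1-2h in pool 3 the highest were zen (68.2 ± 15.0 TPM in orb2-delta-zz, 114 ± 26.8 in wild type; SD, n = 3 each) and scw (63.3 ± 12.8 and 103 ± 18.0), whose values overlapped, and both stood above tsg (27.8 ± 4.47 and 44.1 ± 11.4). In wild type the 7 genes from tsg downwards (tsg, sog, brk, tld, dpp, ths and rho) each overlapped the next in order, whereas in orb2-delta-zz tsg stood clear of sog, and ths, the lowest at 4.70 ± 0.306 TPM, stood clear of rho. At 2-3h in pool 3, sog (107 ± 30.2 and 165 ± 20.2 TPM), zen (98.0 ± 17.1 and 180 ± 78.6), brk (93.6 ± 24.3 and 147 ± 18.8) and ths (60.9 ± 21.3 and 118 ± 36.4) led in both genotypes, while tsg was the lowest at 26.0 ± 6.46 and 49.8 ± 15.2 TPM. Every neighbour in this order overlapped the next in pool 3 at 2-3h in both genotypes. In pool 1 at 2-3h zen was the highest, rho stood apart from it and from brk, and ths was the lowest (1.68 ± 0.486 TPM in orb2-delta-zz, 3.45 ± 1.424 TPM in wild type; SD, n = 3 each).

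Whether the course over time differed between genotypes was tested as an interaction, and none (0) of the 9 genes passed for either pool or step. Over all genes, 0.0699% passed in pool 1 and 0.112% in pool 3 for the step from 0-1h to 1-2h, and 5.07% and 5.23% for the step from 1-2h to 2-3h. At an unadjusted p under 0.05 there were 3 of the 9, all in pool 3 for the first step, where the gain in orb2-delta-zz exceeded that in wild type by 0.89 ± 0.36 for zen, 0.74 ± 0.32 for scw and 0.68 ± 0.31 for tsg. Gains from low values, as in tld, are compressed on this scale, so these 3 are not read as set apart from the others. The orb2-delta-zz libraries of 2-3h lay between those of wild type at 1-2h and at 2-3h in mean TPM for 6 genes in both pools (dpp, tld, sog, brk, rho and ths). For sog in pool 3 the means were 107 ± 30.2 TPM in orb2-delta-zz at 2-3h, and 30.8 ± 3.37 and 165 ± 20.2 TPM in wild type at 1-2h and 2-3h. For zen, tsg and scw the orb2-delta-zz mean of 2-3h lay below both wild-type means. The zen libraries overlapped those of wild type at 1-2h in both pools, with 101, 113 and 79.5 TPM against 90.2, 143 and 108 TPM in pool 3. The share of all genes placed so is not given, so these positions are not read as particular to the 9.

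The third comparison asked how each RNA divided between pools 3 and 1 of a gradient. Normalized counts set each gene against the typical gene of its library. A positive log2 difference, pool 3 minus pool 1, thus means a larger share in pool 3 than the typical gene has. On log2(TPM + 1) all 9 genes had values above 0 at every window in both genotypes. That scale has no such reference, and the library medians on it were also higher in pool 3 at every window. At 2-3h these medians were 4.47 to 4.66 in pool 3 and 2.05 to 2.30 in pool 1. At 0-1h, 7 of the 9 genes were called higher in pool 3 in orb2-delta-zz (40.6% of all genes) and 7 in wild type (39.8%), and 0 lower (39.9% and 40.6% of all genes). The largest differences were those of ths (3.59 ± 0.78 in orb2-delta-zz, 3.54 ± 0.78 in wild type), sog (2.96 and 2.66), brk (2.64 and 2.47) and scw (2.28 and 2.40). The smallest was that of rho (-0.28 ± 0.50 and -0.04 ± 0.50), not called on this scale and at 0.95 in wild type on log2(TPM + 1), where it passed. With the gradient as a block dpp was called too in both genotypes (0.87 and 0.86).

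At 1-2h, 6 genes were called higher in pool 3 in orb2-delta-zz (36.9% of all genes) and 6 in wild type (37%), and 1 was called lower in each, rho, among 37.6% and 37% of all genes. In rho the difference was -0.89 ± 0.20 in orb2-delta-zz and -0.90 ± 0.20 in wild type, but 0.79 and 0.83 on log2(TPM + 1). The values of ths were 3.59 ± 0.28 and 3.27 ± 0.28, and those of sog 2.08 ± 0.17 and 2.23 ± 0.17. With upper-quartile scaling 4 genes were called in each genotype, 3 higher and 1 lower.

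At 2-3h, 3 genes were called higher in pool 3 in orb2-delta-zz (29.9% of all genes) and 2 in wild type (29.3%). They were ths (2.61 ± 0.42 and 2.66 ± 0.42), sog (2.14 ± 0.24 and 2.19 ± 0.24) and, in orb2-delta-zz, brk (1.02 ± 0.29). The 2 genes called lower in each genotype (30.1% and 27.1% of all genes) were rho (-1.37 ± 0.21 and -1.76 ± 0.21) and zen (-0.67 ± 0.21 and -0.97 ± 0.21), whose values on log2(TPM + 1) were above 0, at 1.13 and 0.69 for rho and 1.83 and 1.48 for zen. With the gradient as a block, which pairs the pools of one lysate, 6 were called higher and 2 lower in orb2-delta-zz, and 5 higher and 3 lower in wild type, the third lower one being dpp (-0.38 ± 0.12). On log2(TPM + 1), a scale on which the typical gene was also higher in pool 3, all 9 were called higher in each genotype. Without orb2-delta-zz replicate 2, 3 genes were called in orb2-delta-zz. How many of all genes passed in these alternative fits is not given here, so their counts are not read as particular to the 9.

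The ratio was also compared between windows. In a test chosen after seeing the data, 2 genes had a lower ratio at 1-2h than at 0-1h in orb2-delta-zz (33.5% of all genes were called lower) and 1 in wild type (28.8%). At 2-3h against 1-2h there were 0 in orb2-delta-zz (19.9%) and 3 in wild type (22.8%), and nothing particular to the 9 genes is read from shares this close to or below the background.

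**Figure D4:**
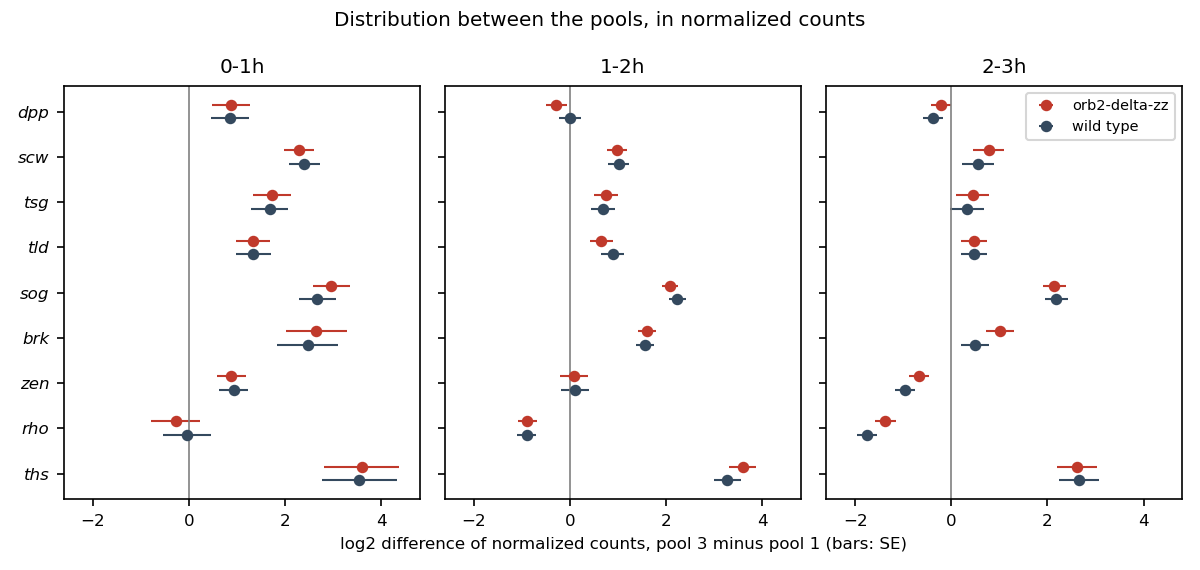
Log2 difference in normalized counts, pool 3 minus pool 1, for each gene in orb2-delta-zz (red, upper) and wild type (dark blue, lower) at 0-1h, 1-2h and 2-3h; bars are standard errors of the fit and 0 is the typical gene. The genes keep a similar order at each window, with ths and sog farthest right and rho farthest left, and the 2 genotypes lie within 0.52 of each other.

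Among the 9 genes ths had the highest and rho the lowest of these differences at every window in both genotypes. In the fit of normalized counts without the gradient block, the interaction of genotype and pool called 0 of the 9 genes at each window. The share of all genes called was 0.518% in the 0-1h window, 0.482% in the 1-2h window and 0.136% in the 2-3h window. In that fit 0 of the 9 had an unadjusted p under 0.05. Pools of one gradient deviated together (r from 0.12 to 0.83), so the SEs of that fit can be too wide for a ratio within a gradient. Values of the fit that pairs the pools are not given for this interaction, so the lack of calls is not read as an equal division. Without the block the differences lay between -0.24 ± 0.71 (rho) and 0.29 ± 0.54 (sog) at 0-1h, between -0.29 ± 0.32 (dpp) and 0.32 ± 0.40 (ths) at 1-2h, and between -0.05 ± 0.34 (sog) and 0.52 ± 0.41 (brk) at 2-3h. On log2(TPM + 1), where low values are compressed, ths passed at 1-2h with the opposite sign, -1.19 ± 0.22 (adjusted p = 0.0229).

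Over the 24 libraries of 1-2h and 2-3h the genes were set beside all others by Pearson's r of log2(TPM + 1), as a description in which pool and window weigh most. Among the 9 genes r ran from 0.158 (rho and scw) to 0.992 (sog and ths). The member nearest to scw was tsg, and that nearest to tsg was scw (0.946). The gene most like sog among 7698 was salm (r = 0.998), that most like ths was corn (0.999), that most like brk was SoxN (0.997) and that most like dpp was nub (0.996). For rho it was phyl (0.989), for tld dpn (0.990), for tsg CG15382 (0.984), for zen CG15876 (0.981) and for scw CG34266 (0.971). The mean profile of the 9 was closest to dpn (0.996), gt (0.991), Gli (0.990), Sry-alpha (0.990) and sna (0.989).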

How the data were processed

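RNA from pools 1 and 3 of sucrose gradients was sequenced as strand-specific, rRNA-depleted libraries (3 per group, 36 in all). The normalized counts (signal) are as the authors deposited them, 1 table per window, and per the submitters' processing notes DESeq2 1.42.1 was used, with Salmon 1.9.1 and Trim Galore 0.6.5 also named there. The TPM values, also as deposited by the authors, summed to 983911 to 998618 per library. No source used here gives a genome build. Normalized count divided by TPM was the same for a gene in every library apart from a library factor (residual SD 0.00581 in log2), so both hold the same data on other library scales. Whole reads were not recovered: 1 read was worth 0.575 to 1.75 normalized counts, and 51.1% to 100% of low values lay within 0.1 of a whole read, so depth is an estimate and no counting interval was computed.

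Each window was fitted in limma 3.58.1 (R 4.3.3; trend) on log2(normalized count + 1), keeping genes whose mean reached 10, with a mean for each of 4 groups over 12 libraries. Steps between windows used log2(TPM + 1) of genes listed at both windows with a mean of at least 1, since each window was scaled separately. Differences on these scales understate changes of low values. Tests were two-sided, with Benjamini-Hochberg adjustment over all genes and a threshold of 0.05. The scripts were tested on simulated data. Pools of one gradient deviated together at every window (r from 0.12 to 0.83), so the gradient block is given where it changes a call. Same-numbered gradients of the genotypes did so in every pair in pool 1 at 0-1h and 2-3h only. The replicate block is given there, and for pool 3 at 2-3h. Alternatives were another pseudocount (10 for normalized counts, 0.1 for TPM), no filter, upper-quartile or quantile scaling, TPM, blocks, only the 6 libraries compared, and leaving out gradients. Tables were prepared with Python 3.11.15, pandas 2.3.3 and numpy 2.4.6, and figures with matplotlib 3.10.9.

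The 9 genes and 11 other gene lists were chosen with earlier results of these data known. The text names all 9 genes, and from each list up to 4 called genes with the largest difference. The change of the pool ratio between windows, and leaving out the gradients with high late-embryo markers, were chosen after seeing the data. The ratio of ths to scw was not among the planned comparisons. Of 171 list symbols, 170 matched a gene. Promoter sequences were not analysed here.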

Additional observations from a re-analysis of the deposited data

Results flagged for a closer look

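The change of the pool 3 to pool 1 ratio between windows was tested on normalized counts, a comparison chosen after seeing the data, and 5 of the 9 genes passed at some step. Their shares per step were close to or below those of all genes, so this is no result about the 9 in particular. From 0-1h to 1-2h the ratio of scw changed by -1.31 ± 0.39 in orb2-delta-zz (adjusted p = 0.00835) and by -1.39 ± 0.39 in wild type (adjusted p = 0.00626), and that of dpp by -1.15 ± 0.47 in orb2-delta-zz (adjusted p = 0.0429). Over all 7589 genes the median change was -0.38 in orb2-delta-zz and -0.33 in wild type, and 33.5% and 28.8% of genes were called lower. From 1-2h to 2-3h the ratio in wild type changed by -1.06 ± 0.36 for brk (adjusted p = 0.0227), by -0.86 ± 0.29 for rho (adjusted p = 0.0224) and by -1.07 ± 0.39 for zen (adjusted p = 0.0313), beside a median of -0.28 and 22.8% of all 8522 genes called lower. In orb2-delta-zz none (0) of the 9 was called at this step, at an adjusted or an unadjusted p under 0.05 (19.9% of all genes called lower), with -0.57 for brk, -0.48 for rho and -0.76 for zen. With the gradient as a block 6 genes were called lower in each genotype for the first step and 4 in orb2-delta-zz for the second, namely brk, rho, zen and ths. The shares above belong to the fit without the block. Those of all genes in the blocked fit are not given here, so its counts are not read as particular to the 9. The difference between genotypes in these changes was not tested. Without single gradients the wild-type calls of the second step ranged from 0 to 3, with 0 without wild-type replicate 1 or 3 of 1-2h or replicate 3 of 2-3h.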

How the results depend on the processing

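All 54 genotype differences kept their sign under every alternative run (738 values, 0 above 0). Counts of genes called lower in orb2-delta-zz moved by more than 1.5 times in some. In pool 1 at 0-1h (6 called), log2(TPM + 1) gave 1, only the 6 libraries compared gave 3, and leaving out single gradients gave 2 to 8. In pool 3 at 0-1h (6) leaving out single gradients gave 0 to 8. In pool 1 at 1-2h (4) the replicate block gave 8. In pool 1 at 2-3h (7) leaving out single gradients gave 3 to 8. In pool 3 at 2-3h (4) upper-quartile scaling gave 7, log2(TPM + 1) 7, the replicate block 9, and leaving out single gradients 0 to 8. More of all genes passed as lower with the replicate block at 2-3h too. Their share was 19.8% in pool 1, where the main fit had 9.48%, and 16.4% in pool 3, where it had 4.97%. For the other alternatives in this paragraph such a share is not given. None of these changed counts is therefore read as particular to the 9 genes. Whether shared replicate numbers pair the genotypes differed between comparisons. Same-numbered libraries correlated above 0.1 in every pair in pool 1 at 0-1h (r from 0.15 to 0.24) and at 2-3h (0.22 to 0.63). They did not in pool 3 at those windows (-0.09 to 0.01, and -0.01 to 0.76) or at 1-2h (-0.74 to 0.43). The labels do not say what a number marks. At 1-2h replicate 1 had the column name LWG_2h.1_1 in wild type but zz_2h.2_1 in orb2-delta-zz, so the submitters' own numbers differed there. The genotype difference in the pool ratio at 1-2h (0) gave 1 on log2(TPM + 1), ths at -1.19.

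For the pool 3 to pool 1 ratio at 1-2h (7 called in each genotype), upper-quartile scaling gave 4 in orb2-delta-zz and 4 in wild type. At 2-3h (5 in orb2-delta-zz, 4 in wild type) log2(TPM + 1) gave 9 and 9, the gradient block 8 and 8, and leaving out single gradients 3 to 6 and 4 to 5. How many of all genes passed in these alternatives is not given here, so nothing particular to the 9 is read from the changed counts. Reversed on log2(TPM + 1), by construction of its library scale, were rho (0.95 in wild type at 0-1h, 0.79 in orb2-delta-zz against 0.83 in wild type at 1-2h, 1.13 and 0.69 at 2-3h), dpp (1.30 in orb2-delta-zz at 1-2h, 2.18 and 2.01 at 2-3h) and zen (1.83 and 1.48 at 2-3h). For the change of that ratio, the gradient block gave 6 in orb2-delta-zz (2) and 6 in wild type (1) from 0-1h to 1-2h, and 4 in orb2-delta-zz (0) from 1-2h to 2-3h. Leaving out single gradients gave 1 to 4 in orb2-delta-zz for the first step and 0 to 3 in wild type (3) for the second. Quantile normalization gave 0.85 for tsg and 0.12 for scw in wild-type pool 1 from 1-2h to 2-3h. Apart from causes named here, the cause was not tested. Of 139 called values of single genes, 42 were lost in at least 1 alternative, and of 140 not called, 55 were called in at least 1. Depth limits ths and tsg in pool 1 at 0-1h most, with means of 9.32 and 13.9 normalized counts in orb2-delta-zz and 25.1 and 43.6 in wild type.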
